A study of Mus musculus with 4 samples.

Results

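The genes described here are the MAP kinases, the dual-specificity phosphatases (DUSP) and the subunits of the PPP-family protein phosphatases in mouse liver RNA-Seq data. They were chosen by symbol alone, as those beginning Map2k, Map3k, Map4k, Mapk, Dusp with a number, or Ppp1 to Ppp6 with a letter. Ppp1r15a, which belongs to the integrated stress response, was left out. The rule found 57 of the 7000 genes listed in the authors' deposited comparison of the diets. Male FVB/N mice were weaned onto the diets at 3 weeks of age and kept on them for 6 weeks. Both diets were based on torula yeast, one with no added selenium (0 Se, mice 1 and 2) and one with 0.1 ppm Se added as sodium selenite (0.1 Se, mice 4 and 5). The libraries were made from liver RNA freed of ribosomal RNA. The question asked of these libraries was which liver mRNAs respond to Se intake.

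In a MAP kinase cascade, a MAP3K phosphorylates a MAP2K, which phosphorylates a MAPK, and a MAP4K can act above them. The ERK branch answers growth factors through RAF, while the JNK and p38 branches answer stress and cytokines. Dual-specificity phosphatases switch the MAPKs off, and several of their genes are themselves transcribed when the cascade is active. The PPP phosphatases PP1, PP2A, calcineurin (PP3), PP4, PP5 and PP6 remove phosphate from serine and threonine, and owe their targets to regulatory subunits. In liver, PP1 bound to glycogen-targeting subunits controls glycogen synthesis, and MAPK signalling accompanies growth, inflammation and regeneration.

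For each gene the deposited table holds edgeR's log2 fold change, p-value and FDR (a Benjamini-Hochberg adjusted p), and the log2 of its mean CPM (counts scaled to a common library total) in the 4 libraries. All fold changes below are 0.1 Se over 0 Se, so that values under 1 are lower in the Se-adequate mice. Values of single mice and library depths were not analysed here, so the levels in each diet are back-calculated means and whether the mice of the diets overlap cannot be seen. Intervals in brackets are 95% confidence intervals back-calculated from the p-value and rest on edgeR's estimate of spread with 2 mice per diet. How that spread was estimated is not given in the sources used here. Of 11033 genes tested, 4033 are not in the table, and the largest p-value listed is 0.553471 by edgeR. Of 154 protein-coding genes in the RefSeq annotation of GRCm38.p6 whose current symbols meet the rule, 57 were listed under them and 3 under older symbols that the rule does not match (Map3k20, Ppp1r21 and Ppp4r3a). The 94 others were found under no symbol. Each may have failed the authors' filter on low counts, had an edgeR p-value above 0.553471, or been missing from the authors' mRNA set. Since larger p-values are not listed, counts over the listed genes are counts over genes that lean one way or the other. As a check of the tissue, the hepatocyte genes Apob, Apoa1, Serpina1a and Tat were listed at 1415 to 21876 CPM, with 0 called, while Alb, Ttr, Cps1 and Ass1 were not listed.

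A gene was called changed where its FDR was under 0.05 and its change above 1.5-fold, the rule of the study. Ppp1r10 and Mapk15 fell, and no gene of these families was called higher in 0.1 Se mice. The 2 genes called lower are 3.51% of the 57, where 2.31% of all listed genes and 1.47% of all genes tested were called lower. Since the 57 are all listed genes, the share over listed genes is the like one. The 0 genes called higher stand beside 2.69% of all listed genes and 1.70% of all genes tested. With the FDR alone, Dusp6 was also lower, which makes 3 lower and 0 higher of the 57. On the like base, 238 were lower and 266 higher of the 7000 listed genes. Over the larger base of all 11033 genes tested these are 2.16% and 2.41%. At an unadjusted edgeR p-value under 0.05, 1 gene of these families was higher and 6 were lower, which is 12.3% of the 57 and 23.2% of all listed genes.

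Ppp1r10 encodes PNUTS, a nuclear subunit that brings PP1 to chromatin and to RNA polymerase II. Its mean level was 38.6 CPM in 0 Se and 16.6 CPM in 0.1 Se livers, a 0.431-fold difference (0.354 to 0.524, FDR = 4.91e-14 with edgeR). It ranked 9 of all genes by p-value. The gene lies at chr17:36053379-36069226 on the plus strand (NCBIM37, the same assembly as mm9) and its annotated transcript nearest in length has 20 exons. The microRNA Mir1894 is annotated within its exons on the same strand, so reads of the microRNA's precursor would count towards it.

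Mapk15 encodes ERK8, an atypical MAPK linked to autophagy and primary cilia that does not need a MAP2K. It fell from 6.71 CPM in 0 Se to 3.85 CPM in 0.1 Se livers, 0.574-fold (0.420 to 0.784, FDR = 0.0174 with edgeR). The gene lies at chr15:75824199-75829582 on the plus strand and has 14 exons. Its interval reaches from a change of more than 2-fold to one below the 1.5-fold threshold.

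Dusp6 encodes a cytoplasmic phosphatase specific for ERK, and its own transcription is raised by ERK activity. Its level was 79.5 CPM in 0 Se and 54.8 CPM in 0.1 Se livers, 0.689-fold (0.565 to 0.840, FDR = 0.010 with edgeR), which is lower by the test but less than the 1.5-fold that a call asks for. The gene lies at chr10:98725865-98730122 on the plus strand, with 3 exons. Dusp1, an immediate early gene whose product acts on MAPKs in the nucleus, is the family's other well-known feedback member, and did not pass (15.9 and 13.0 CPM, 0.817-fold, 0.530 to 1.26, FDR = 0.765 with edgeR). The difference between the changes of Dusp6 and Dusp1 was not tested.

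Upstream bases were sought for genes with an FDR under 0.05, and for genes given in detail whose upstream window held the full cAMP response element. Dusp6 met the first condition and Dusp1 only the second, so the element in Dusp1 is the reason it is shown. Of the genes sought, including Ppp1r10 and Mapk15, only these 2 had a uniquely placed sequence of at least 150 bases before their exons. Both are RefSeq sequences on the coding strand, 5′ to 3′, trimmed so that they end next to the first annotated exon. The Dusp6 sequence is at chr10:98725615-98725864 (plus strand) and the Dusp1 sequence at chr17:26645465-26645667 (minus strand), both in NCBIM37 after an exact match. Capitals mark matches, on either strand, to the cAMP response element TGACGTCA, its core TGACG, the AP-1 site TGANTCA, the ETS site CCGGAA, the TATA box TATAAA, the CCAAT box and the CArG box, the site of serum response factor.
Dusp6: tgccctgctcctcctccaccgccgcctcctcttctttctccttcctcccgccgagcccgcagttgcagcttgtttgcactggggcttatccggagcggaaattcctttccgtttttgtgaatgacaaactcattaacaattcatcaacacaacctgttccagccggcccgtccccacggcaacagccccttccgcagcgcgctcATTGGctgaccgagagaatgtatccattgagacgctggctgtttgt
Dusp1: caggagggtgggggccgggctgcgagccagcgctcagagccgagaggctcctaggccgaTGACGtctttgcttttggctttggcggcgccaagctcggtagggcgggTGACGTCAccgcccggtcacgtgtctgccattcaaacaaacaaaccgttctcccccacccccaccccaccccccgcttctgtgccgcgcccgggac
The Dusp1 sequence holds a full cAMP response element that starts 96 bases before the exon, and a further core 144 bases before it, which overlaps no other match. The Dusp6 sequence holds only a CCAAT box, on the opposite strand, 46 bases before the exon. A match is a description of the letters, and the lack of one says nothing about the factor.

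Promoter sequences were found for 43 of the 57 genes, in 56 windows of 250 bases upstream of a start. The full cAMP response element was in 4 of these windows (7.14%), belonging to Dusp1, Ppp2ca and Ppp2r2d, and in 1.55% of the 32851 windows of all genes. Its core, which the full element contains, was in 28.6% of the windows of these genes and 17.8% of all windows. The ETS site was in 19.6% against 12.0%, the AP-1 site in 3.57% against 6.75%, the CCAAT box in 33.9% against 33.8% and the TATA box in 8.93% against 12.4%. The CArG box was in 0 of the 56 windows and in 1.47% of all windows. None of Dusp1, Ppp2ca and Ppp2r2d was called, and their fold changes were 0.817, 1.08 and 0.792.

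**Figure D1:**
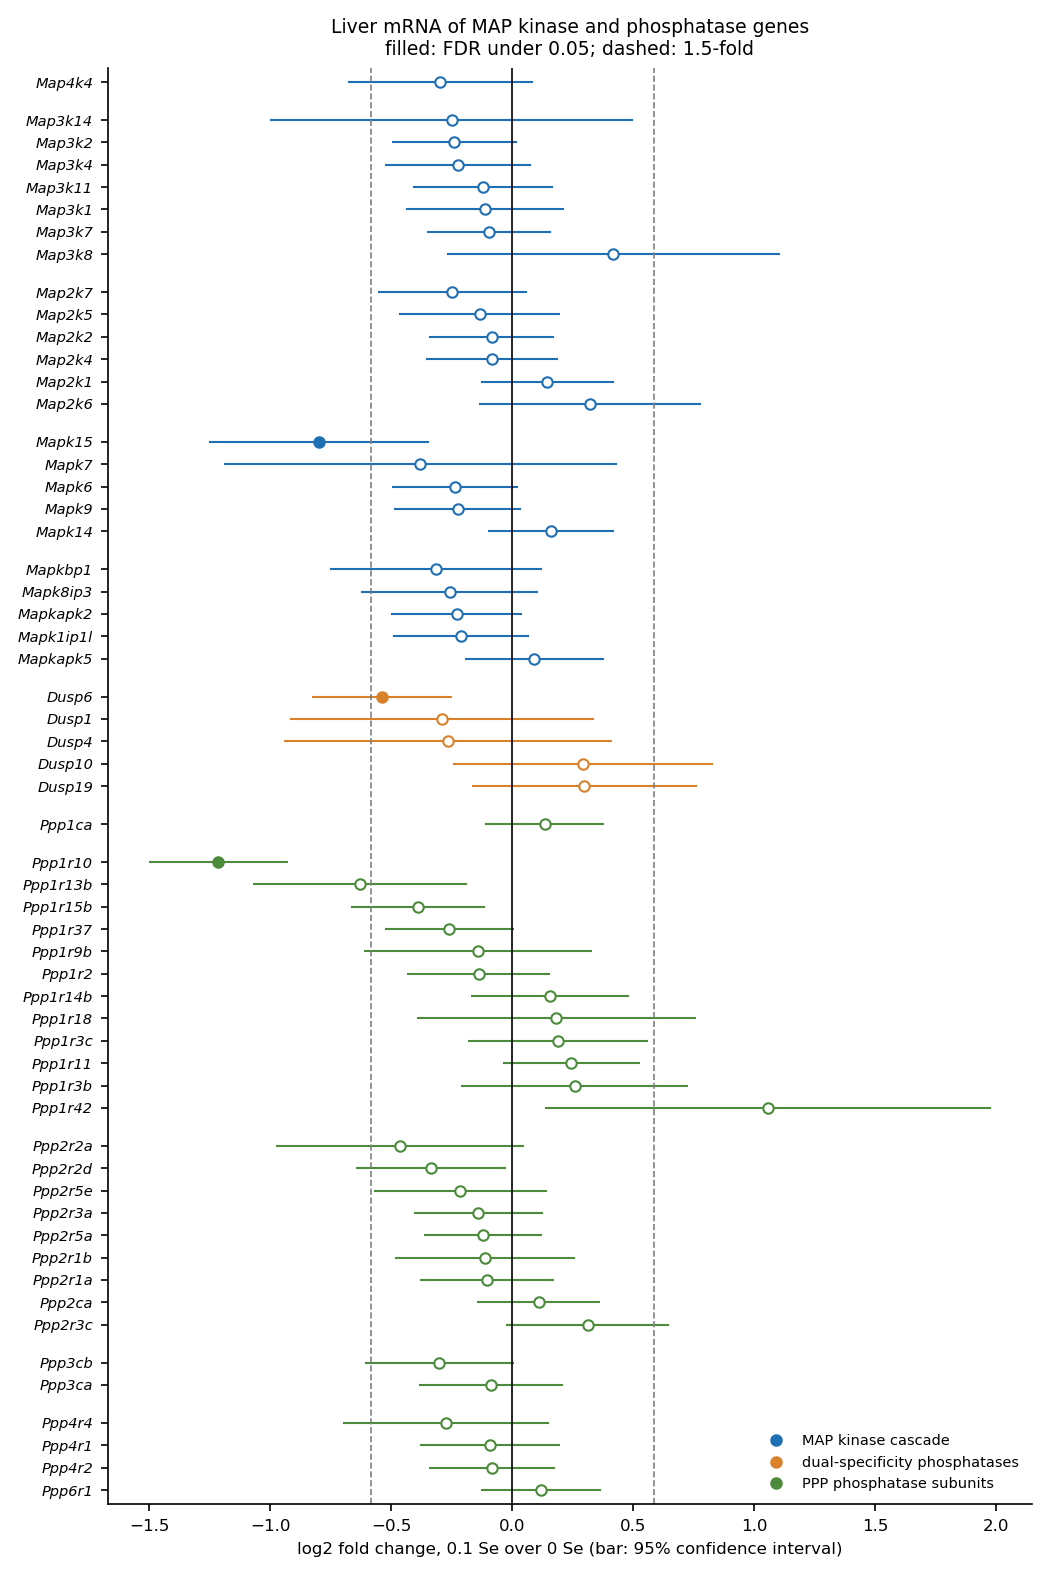
Log2 fold change (0.1 Se over 0 Se, horizontal axis) of each of the 57 genes, grouped by class, with 95% confidence intervals as bars. Filled points have an FDR under 0.05 and dashed lines mark a 1.5-fold change: Ppp1r10, Mapk15 and Dusp6 are filled, all to the left of 0, and 50 of the intervals include no change.

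Above the cascade, 13 of 21 genes from the receptor to RAF (receptors, adaptors, RAS regulators and RAF kinases) were listed, of which 12 had lower mean levels in 0.1 Se livers and 1 higher. None of the 13 had an FDR under 0.05. The share with lower values was 92.3%, against 48.8% of all listed genes. At an unadjusted edgeR p-value under 0.05, 1 was higher and 6 were lower, which is 53.8% of the 13 and 23.2% of all listed genes. The list was chosen with earlier results of these data known, and these shares were not tested. The median log2 fold change of the list was -0.32, and -0.21 once a trend with mRNA length was removed, against 0.09 and 0.02 over all listed genes. With that trend removed the receptor Egfr, named for this after its value was seen, passed the FDR in the higher direction (FDR = 0.0447 from the recomputed edgeR p-values, 0.39 on the log2 scale, below the fold of a call).

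Of the kinases above the MAP2Ks, Map4k4, which acts on the JNK branch, was the only MAP4K listed of 5 annotated. Its level was 9.18 CPM in 0 Se and 7.47 CPM in 0.1 Se, 0.814-fold (0.626 to 1.06). Of 19 annotated MAP3Ks, 7 were listed under their current symbols, 6 with lower and 1 with higher mean levels, and none had an FDR under 0.386. The one with the highest level per kilobase of mRNA was Map3k7, the TAK1 kinase of the Toll-like receptor, interleukin-1 and TGF-beta pathways, at 12.3 CPM per kilobase. Its level was 73.4 CPM in 0 Se and 68.6 CPM in 0.1 Se, 0.935-fold (0.785 to 1.11), and the sign of this value turns when the length trend is removed. Map3k8, the TPL2 kinase that carries Toll-like receptor signals to ERK, had the largest difference of the class, from 2.38 to 3.17 CPM. At this level the fold of 1.33 had an interval of 0.831 to 2.14, so a difference of this size was not detectable. Of the others, Map3k14 (NIK, of the non-canonical NF-kB pathway) was at 0.840-fold, Map3k2 at 0.847-fold, Map3k4 at 0.856-fold, Map3k11 (MLK3) at 0.921-fold and Map3k1 at 0.925-fold. The 6 MAP3Ks with lower values became 3 after the length trend was removed, so the class has no direction that holds under both scalings.

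All but 1 of the 7 annotated MAP2Ks were listed, and none was called. The ERK activators Map2k1 (MEK1) and Map2k2 (MEK2) were at 42.6 and 47.1 CPM and at 72.2 and 68.1 CPM in 0 Se and 0.1 Se livers. The folds were 1.11 (0.916 to 1.34) for Map2k1 and 0.943 (0.790 to 1.12) for Map2k2, so that both intervals exclude a 1.5-fold difference in either direction. The same was so for the JNK activators Map2k4, at 0.943-fold (0.784 to 1.14), and Map2k7, at 0.842-fold (0.682 to 1.04). Map2k6, an activator of p38, went from 8.71 to 10.9 CPM, 1.25-fold (0.911 to 1.71), the largest difference of the class. Map2k5, which activates the MAPK encoded by Mapk7, was at 0.911-fold. Per kilobase, Map2k2 was the highest of the class at 29.6 CPM, followed by Map2k1 at 18.8 and Map2k4 at 12.0, and the 3 others lay between 4.75 and 5.93.

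Of 13 annotated MAPKs, 5 were listed. Apart from Mapk15, Mapk14 (p38 alpha) was at 64.2 and 71.7 CPM, 1.12-fold (0.934 to 1.34), and Mapk9 (JNK2) at 68.6 and 58.7 CPM, 0.856-fold (0.715 to 1.02). The atypical Mapk6 (ERK3) was at 0.849-fold (0.710 to 1.01), and Mapk7 (ERK5), the lowest of the 57 genes per kilobase at 0.432 CPM, was at 0.769-fold (0.439 to 1.34). Mapk8, which encodes JNK1, was not listed. Mapk14 at 18.9, Mapk9 at 13.6 and Mapk6 at 12.5 CPM per kilobase led the class, with Mapk15 at 2.73.

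Among partners and targets of MAPKs, 5 of 10 annotated genes were listed and none was called. Mapkapk2, the kinase through which p38 steadies cytokine mRNAs, had the highest level of them per kilobase (20.4 CPM) and was at 0.853-fold (0.709 to 1.03). Mapkbp1, a JNK-binding scaffold, went from 6.01 to 4.83 CPM, 0.803-fold (0.594 to 1.09). The JNK scaffold Mapk8ip3 was at 0.836-fold, Mapk1ip1l at 0.863-fold and Mapkapk5, a p38-regulated kinase, at 1.07-fold. Outside these symbols, 3 of 7 RSK, MSK and MNK kinases were listed with an FDR of 0.401 or more in edgeR.

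Together the 24 kinases and partners had 19 lower and 5 higher values. Without the length trend the lower ones were 16, which moved their share from 79.2% to 66.7%, against 48.8% and 47.4% over all listed genes. The median log2 fold change of the 24 was -0.22, and -0.12 without the trend. Only Mapk15 of the 24 had an unadjusted edgeR p-value under 0.05.

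Transcription factors and immediate early genes that respond to MAPKs were described from a list of 18, of which 10 were listed, 8 with lower and 2 with higher values. Fos fell from 5.85 to 1.13 CPM (0.194-fold, 0.0866 to 0.433, FDR = 0.00408 with edgeR). Its level in 0.1 Se was close to the 1 CPM of the authors' filter. Jun, the partner of Fos in AP-1, fell from 12.0 to 6.87 CPM (0.571-fold, FDR = 0.0217), and Mef2d, a MADS-box factor regulated by p38 and ERK5, fell from 6.71 to 3.77 CPM (0.562-fold, FDR = 0.0108). Junb, named after its value was seen, went the other way, from 17.7 to 26.5 CPM. Its fold of 1.499 (1.15 to 1.95, FDR = 0.0525 with edgeR) was not called. At an unadjusted edgeR p-value under 0.05, 1 gene of the list was higher and 5 were lower. The 3 called genes, Fos, Jun and Mef2d, are 30% of the 10 listed, where 2.31% of all listed genes and 1.47% of all genes tested were called lower. The list was chosen with earlier results of these data known, so this share is a description and was not tested.

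Of 24 annotated DUSP genes, 5 were listed. Besides Dusp6 and Dusp1, the nuclear phosphatase Dusp4 was at 0.832-fold (0.521 to 1.33), Dusp10, which acts on p38 and JNK, at 1.22-fold (0.846 to 1.77), and the small atypical Dusp19 at 1.23-fold (0.893 to 1.69). Per kilobase Dusp6 (24.0 CPM) stood above Dusp1 (7.44), Dusp19 (3.07), Dusp10 (1.23) and Dusp4 (0.723). The intervals of the 4 others all include no change, and all extend past 1.5-fold on one side or both. None of the 5 intervals lay within 1.5-fold.

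**Figure D2:**
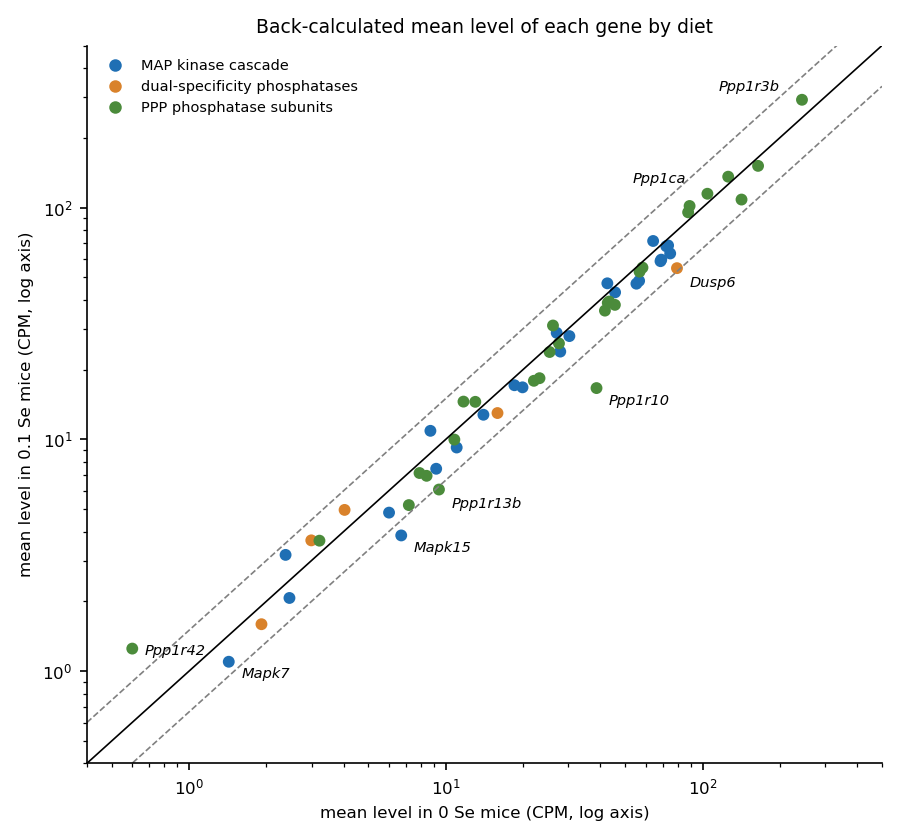
Back-calculated mean level of each of the 57 genes in 0 Se mice (horizontal axis, CPM) and in 0.1 Se mice (vertical axis, CPM), both on log axes, with the line of equality and dashed lines at 1.5-fold. Ppp1r10 (38.6 and 16.6 CPM), Mapk15 (6.71 and 3.85 CPM) and Ppp1r13b (9.41 and 6.07 CPM, not called) lie below the lower dashed line. Dusp6 (79.5 and 54.8 CPM) lies just above that line, and Ppp1r42 (0.601 and 1.25 CPM, not called) above the upper one.

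For PP1, 1 of 4 annotated genes in the catalytic class was listed. Ppp1ca, which encodes the alpha catalytic subunit, had the highest level per kilobase of the 57 genes (80.4 CPM) and was at 104 CPM in 0 Se and 115 CPM in 0.1 Se, 1.10-fold (0.928 to 1.30). Its interval excludes a 1.5-fold difference. Ppp1ca shares exon sequence with Rad9 on the opposite strand, and whether the counting used strand is not given in the sources used here. Ppp1cb and Ppp1cc were not listed.

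Of the PP1 regulatory subunits 12 of 40 annotated were listed under their current symbols, 6 with lower and 6 with higher values, and Ppp1r10 alone was called. Outside the rule for named genes and picked after their values were seen, the next by p-value were Ppp1r13b and Ppp1r15b. Ppp1r13b encodes ASPP1, a partner of p53, and was at 9.41 and 6.07 CPM (0.646-fold, 0.477 to 0.875, FDR = 0.0820 with edgeR). Ppp1r15b encodes CReP, which takes PP1 to the translation factor eIF2 alpha, and was at 142 and 108 CPM (0.763-fold, 0.632 to 0.921, FDR = 0.0830). The largest value above 1 in all 57 was that of Ppp1r42, a leucine-rich repeat subunit, at 0.601 and 1.25 CPM (2.08-fold, 1.10 to 3.93, FDR = 0.228), the lowest level of the 57 in CPM.

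The glycogen-targeting subunits of PP1 did not pass the test. Ppp1r3b, the liver form, had the highest level of its class per kilobase (63.5 CPM) and was at 244 CPM in 0 Se and 292 CPM in 0.1 Se, 1.2-fold (0.866 to 1.65, FDR = 0.705 with edgeR). Its relative Ppp1r3c was at 89.0 and 102 CPM, 1.14-fold (0.884 to 1.47). Their standard errors on the log2 scale (0.237 and 0.188) were wide for their level: the median was 0.128 for the 5 genes above 100 CPM, Ppp1r3b among them, and 0.145 for the 36 from 10 to 100 CPM, Ppp1r3c among them. The inhibitory subunits were at 0.908-fold (Ppp1r2), 1.18-fold (Ppp1r11) and 1.11-fold (Ppp1r14b). The actin-associated Ppp1r9b (spinophilin) and Ppp1r18 were at 0.906-fold and 1.13-fold, and Ppp1r37 at 0.835-fold.

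PP2A is assembled from a scaffold, a catalytic and a variable regulatory subunit, and 9 of 16 annotated genes were listed, 7 with lower and 2 with higher values, none called. The catalytic Ppp2ca (67.8 CPM per kilobase) was at 126 and 136 CPM, 1.08-fold (0.907 to 1.28), and its paralog Ppp2cb was not listed. The scaffolds Ppp2r1a and Ppp2r1b were at 0.930-fold and 0.924-fold. Ppp2r2a, a B55 subunit, had the largest difference of the class, from 7.18 to 5.20 CPM (0.725-fold, 0.509 to 1.03), and its paralog Ppp2r2d was at 0.792-fold (0.640 to 0.979, FDR = 0.267 with edgeR). The B56 subunits Ppp2r5a (51.2 CPM per kilobase) and Ppp2r5e were at 0.919-fold and 0.862-fold, Ppp2r3a at 0.908-fold and Ppp2r3c at 1.24-fold (0.985 to 1.56). Without the length trend 6 of the 9 were lower. Ppp2r2d shares exon sequence with Mapk1ip1 on the opposite strand. Among PP2A partners with other names 7 of 14 were listed, 2 lower and 5 higher, none with an FDR under 0.05.

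Of the calcineurin genes, 2 of 5 annotated were listed, both catalytic. Ppp3cb was at 22 and 17.9 CPM, 0.812-fold (0.657 to 1.0, FDR = 0.351 with edgeR), and Ppp3ca at 27.6 and 25.9 CPM, 0.940-fold (0.767 to 1.15). Of 9 calcineurin inhibitors and NFAT targets 7 were listed, 6 lower and 1 higher, none with an FDR under 0.05.

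For PP4 to PP6, 4 of 11 annotated genes were listed under their current symbols, all regulatory, and the catalytic Ppp4c, Ppp5c and Ppp6c were not. Ppp6r1 was the highest per kilobase (24.2 CPM), at 87.9 and 95.4 CPM, 1.09-fold (0.916 to 1.29). Ppp4r4 was at 8.42 and 6.96 CPM, 0.827-fold (0.617 to 1.11), Ppp4r1 at 0.938-fold and Ppp4r2 at 0.944-fold. Of the unrelated PPM phosphatases, 8 of 15 were listed, 6 lower and 2 higher. Ppm1k, the mitochondrial phosphatase that activates branched-chain keto acid breakdown, was at 181 and 135 CPM (0.743-fold, FDR = 0.0233 with edgeR), below the fold of a call. With the length trend removed it no longer passed (FDR = 0.235).

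**Figure D3:**
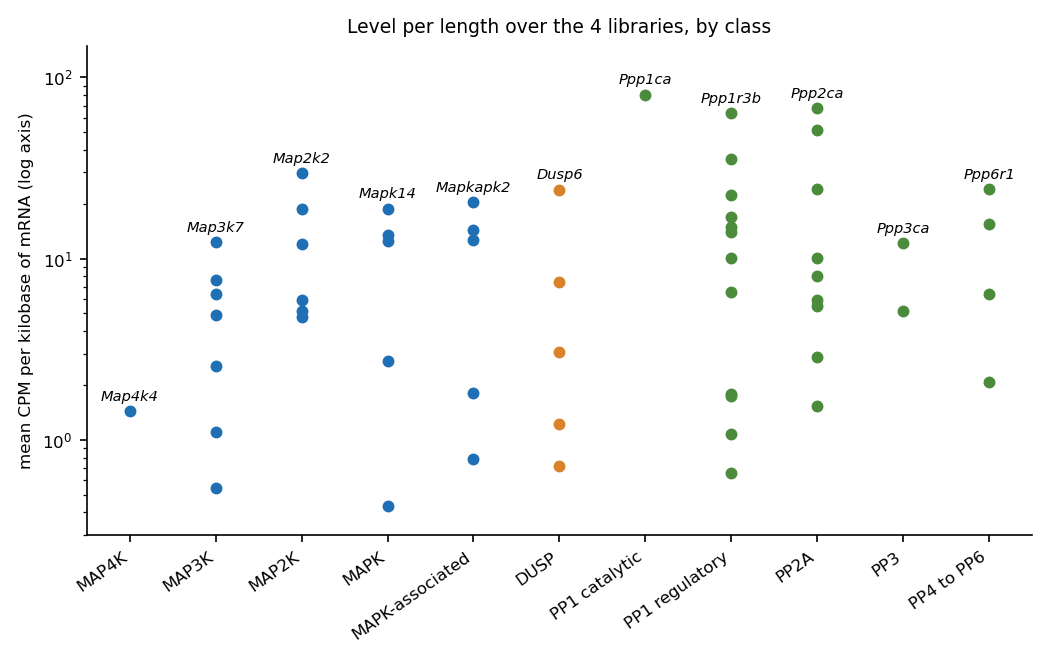
Mean level per kilobase of mRNA (vertical axis, CPM per kilobase over the 4 libraries, log axis) of each of the 57 genes by class, with the highest gene of each class named. Ppp1ca (80.4), Ppp2ca (67.8) and Ppp1r3b (63.5) stand highest, and no kinase gene is above 29.6.

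The order of the levels per kilobase ran from Ppp1ca, Ppp2ca, Ppp1r3b and Ppp2r5a (51.2) through Ppp1r3c (35.6) and Map2k2 (29.6) down to Map3k14 (0.543) and Mapk7 (0.432). This order has no test, since the spread of a level between mice was not analysed here.

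How small a difference could be seen depended on the level. Standard errors (log2 scale) had a median of 0.412 in the 3 genes under 2 CPM and 0.235 in the 13 from 2 to 10 CPM, above the medians given for the better covered genes. A fold of 1.75 would be needed for an unadjusted p of 0.05 at the lowest of these levels, and of 1.19 at the highest. A call needs a larger difference than these, since it asks for an FDR under 0.05 and for 1.5-fold. Of the 57 intervals, 32 lay within 1.5-fold either way, and 50 include no change.

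Over the 57 genes, 40 values were lower and 17 higher in 0.1 Se livers (70.2% lower, against 48.8% of all listed genes), and the median log2 fold change was -0.13 against 0.09. These genes were also long, with a median mRNA length of 3593 bases against 2959.5 for all listed genes. Across all listed genes the log2 fold change fell with length (Spearman's rho = -0.43 across genes, which are not independent replicates), and the rho was -0.42 over the 57. Of the 33 genes of these families longer than 2959.5 bases, 29 were lower, and of the 24 others 11 were lower. With the trend over all listed genes removed, 36 of the 57 were lower (63.2% against 47.4%) and the median was -0.09 against 0.02. The remaining rho was -0.21 over the 57 and -0.19 over all listed genes, so the removal was partial. Map3k1, Map3k2, Map3k7 and Ppp2r3a changed sign, all from lower to higher. Ppp1r10 and Mapk15 kept their calls, with log2 fold changes of -1.16 and -0.85, and Dusp6 was at -0.56 (FDR = 0.00896). The part of length in the lower values of these families was not tested further.

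**Figure D4:**
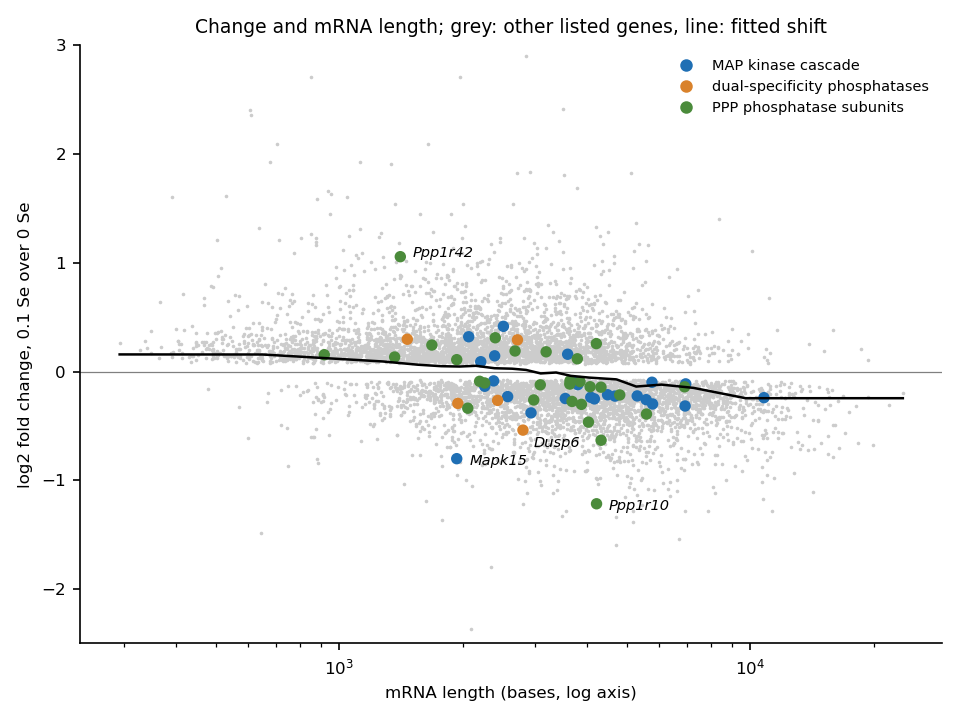
Log2 fold change (0.1 Se over 0 Se, vertical axis) against mRNA length (horizontal axis, bases, log axis) for the 57 genes in colour and the other listed genes in grey, with the shift fitted over all listed genes as a line. The gap around 0 is where genes with large p-values are not listed. The fitted line falls with length, and Ppp1r10, Mapk15 and Dusp6 lie well below it.

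Whole liver holds several cell types, and in bulk RNA fewer cells of a type and less RNA per cell cannot be told apart. Of 8 Kupffer cell markers 7 were listed, and all 7 rose with an FDR under 0.05 in edgeR (4 of them called, 3 with the length trend removed, under which Timd4 and Vsig4 no longer passed at FDR = 0.0814 and 0.131), with a summed level of 413 CPM in 0 Se and 619 CPM in 0.1 Se. Of 8 stellate cell markers all were listed at lower values, 3 of them called (Col3a1, Col1a1 and Reln, of which Reln lost its call with the length trend removed, FDR = 0.248), with a summed level of 559 and 418 CPM. Of 7 sinusoidal endothelial markers 5 were listed (427 and 398 CPM in sum, 0 called), and of 5 cholangiocyte markers 1. Of 5 neutrophil markers 2 were listed (1.70 and 3.57 CPM in sum), S100a8 being called higher (not with the length trend removed, FDR = 0.0529), and none of 6 lymphocyte markers. The pancreas marker Cela1 was listed at 29.4 and 32.5 CPM. The part of these cell types in the values of Ppp1r10, Mapk15 and Dusp6 was not tested. Of 13 partners of TRAF6 and TAK1, which act above JNK and p38 and are used by macrophages, 9 were listed, and the stress-induced Gadd45b alone was called (0.957 and 2.31 CPM, 2.42-fold, FDR = 0.0154 with edgeR). Its level in 0 Se was close to the 1 CPM of the authors' filter. Beside the counts called in these lists, 2.69% of all listed genes were called higher and 2.31% lower. Of all genes tested these were 1.70% and 1.47%.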

How the data were processed

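Liver RNA of 4 FVB/N mice (2 on 0 Se, 2 on 0.1 Se) was depleted of ribosomal RNA and sequenced. Reads were aligned by the authors with Bowtie to the longest RefSeq mRNA (mm9) of each gene, allowing 2 mismatches and unique hits only. Genes above 1 CPM in at least 3 samples entered the authors' edgeR comparison. Its log2 fold changes and log2 mean CPM, and its p-values and FDR, are used here exactly as deposited by the authors. They hold the authors' own comparison and are the only measurements used here, with 0 columns for single mice. Depth per library, the spread between mice and other normalizations were therefore not analysed. For the authors' edgeR test, its version and its normalization, the sources used here give no detail.

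The number of genes tested was computed as FDR times rank over p. Each standard error was taken as the absolute log2 fold change over the two-sided normal deviate that its p-value implies, which approximates the authors' test. The length trend was fitted in 20 length classes over all listed genes, leaving out genes beyond 3 standard errors and allowing for the unlisted p-values, and was checked on simulated data. Coordinates are from GENCODE vM1, in which all 57 genes were matched, 54 by symbol and 53 with a transcript within 10% of the listed length. Promoter sequences are from RefSeq (GRCm38.p6), placed in NCBIM37 by exact match.

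The genes and lists were chosen with earlier results of these data known. Genes given in detail are those with an FDR under 0.05, the highest per kilobase and the largest change of each class, and core kinases, catalytic subunits, Dusp1 and Dusp6. The remaining ones are named with their folds to account for all 57, or as picked after their values were seen. Genes of other lists are named where their FDR was under 0.05, or as named after their values were seen. Alternatives were the FDR alone, an FDR under 0.01, a Bonferroni adjustment, a minimum of 10 CPM, removal of the length trend, and a test against a 1.5-fold change. Scripts used Python 3.11.15 with numpy 2.4.6, scipy 1.17.1, pandas 2.3.3 and, for plots, matplotlib 3.10.9.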

Additional observations from a re-analysis of the deposited data

How the results depend on the processing

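The count of 2 genes called lower (Mapk15 and Ppp1r10) was the same 2 with the length trend removed and 3 with the FDR alone, Dusp6 being added. It was 1, Ppp1r10, with an FDR under 0.01, with a Bonferroni adjustment, with a minimum mean of 10 CPM (which leaves out Mapk15 by its level) and with a test against a 1.5-fold change. The count called higher was 0 in all 6 alternatives. The median log2 fold change of the 57 was -0.13, -0.09 with the length trend removed and -0.12 for those of at least 10 CPM. Of the 24 genes given in detail, 23 kept their direction and their call with the length trend removed, and Map3k7 went from -0.098 to 0.028 (log2), a value within its standard error of 0.129. With an FDR under 0.01, Mapk15 (FDR = 0.0174 with edgeR) lost its call. Over all genes the counts called lower ranged from 2 to 238 and those called higher from 21 to 266 over these settings. No paired analysis was possible because the mice carry different numbers in each diet and the data hold no values for single mice. Leaving out each mouse, another normalization and another filter on low counts were not possible for the same reason. Genes under 10 CPM had the widest median standard errors, though single genes above that level, such as Ppp1r3b and Dusp1, had wide ones too.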

Other observations

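Current annotations place 3 more listed genes in these families under older symbols, which the choice by symbol missed. B230120H23Rik, now Map3k20, a kinase activated by stalled ribosomes, was at 13.7 CPM in 0 Se and 12.3 CPM in 0.1 Se (0.898-fold, 0.708 to 1.14). Klraq1, now Ppp1r21, was at 17.1 and 15.6 CPM (0.911-fold, 0.734 to 1.13). Smek1, now Ppp4r3a, a regulatory subunit of PP4, was at 70.8 and 61.1 CPM (0.862-fold, 0.725 to 1.02). None of the 3 had an FDR under 0.05 in edgeR, and all 3 values are lower in 0.1 Se livers.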
